A study of Mus musculus with 9 samples.

Results

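The transcriptome described here is that of C2C12 myotubes that received a control adenovirus carrying LacZ, the gene of a bacterial beta-galactosidase. The members were chosen by their labels: the 3 libraries labelled as LacZ controls, of 9 libraries in all. C2C12 is an established mouse myoblast line that leaves the cell cycle and fuses into multinucleated myotubes when serum is reduced. The cells had differentiated for 4 days in medium with horse serum, were exposed to virus at a multiplicity of infection of 3 for 4 h, and were collected 48 h after transduction. The other 6 libraries, from cells given full-length PGC-1alpha or PGC-1alpha without its C-terminal domain, carry the same type of vector and were not analysed here. There is 1 cell line and no uninfected group, so every value below is that of virus-treated cells. Replicates are called biological in the series' design text, without saying whether they are separate cultures, and the spread given is the spread between these 3 samples.

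Skeletal muscle is built by myoblasts that express MyoD and Myf5, leave the cell cycle, switch on myogenin and MEF2 factors, fuse, and assemble sarcomeres. Most sarcomere proteins exist as several isoforms from different genes, used in turn by embryonic, neonatal and adult fibres, and divided among adult fibres into slow and fast types. C2C12 myotubes are widely used as a model of young muscle fibres. In culture they have no nerve and no mature motor end plate. Which isoforms were used, which gene families filled the transcriptome, which genes were silent and how far differentiation had gone are the questions addressed.

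Depth was 115718449, 110309704 and 118931863 counted reads in replicates 1, 2 and 3, all from polyadenylated RNA. Levels of different genes were compared after division by exon length, as TPM (transcripts in every 1000000), the share of a gene among all length-scaled reads times 1000000. For a gene of 1000 exon bases, 3 reads over the 3 libraries correspond to 0.0309 TPM, which is the upper limit that a count of 0 allows. Such limits cover counting error only. Replicate 1 differed more from replicates 2 and 3 than these did from each other, as described with the most variable genes at the end, and each value was also taken without each replicate. All 5 genes given as marks of these cells were high: the myogenic factor Myog, the embryonic myosin Myh3, the skeletal actin Acta1, the muscle creatine kinase Ckm and the non-coding RNA H19. Myog was at 1116, 1142 and 1104 TPM in replicates 1, 2 and 3, Myh3 at 935, 925 and 897 TPM and Acta1 at 5849.7, 6202 and 5883 TPM. Ckm was at 269, 291 and 271 TPM and H19 at 7604, 8823 and 8551 TPM. These 5 were given beforehand, and the series holds no undifferentiated cells, so their levels are no independent test of the label of myotubes. In this bulk RNA, fewer cells of a type and less RNA per cell cannot be told apart. Values are of RNA throughout, and protein was not measured.

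Of 55240 annotated genes with a known exon length, 14006 were at or above 1 TPM in all 3 libraries, which is 25.4%, and are called expressed below. Among 21893 protein-coding genes the expressed ones numbered 11770, or 53.8%. Counts of expressed members in lists of protein-coding genes below stand against this share. No read at all was counted in any of the 3 libraries for 45.6% of all genes and for 22.1% of protein-coding genes, and these are called silent. They include all 37 genes of the mitochondrial chromosome. Every TPM value and share of the summed level is thus taken on a total without mitochondrially encoded RNA. A further 3096 protein-coding genes had reads but stayed below 0.1 TPM. Messenger RNA was unequally divided. The 120 genes at 1000 TPM or more held 27.9% of the summed level, the 1738 genes between 100 and 1000 TPM held 42.7%, and the 5192 genes between 1 and 10 TPM held 2.111%. The 10 highest genes held 9.11 ± 0.121% (SD, n = 3) and the 100 highest 25.8 ± 0.226%, while 573 genes made up 50% of the total.

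The most abundant RNA was that of Mylpf, the regulatory light chain of fast skeletal myosin, at 16658, 16842 and 16255 TPM in the 3 libraries. Next came Lgals1, the sugar-binding protein galectin-1, at 13428, 13918 and 13445 TPM, and Eef1a1, which delivers aminoacyl-tRNA to the ribosome, at 12355, 11780.1 and 11881 TPM. Among the 20 highest features, 6 encode parts of the sarcomere's filaments in skeletal muscle: Mylpf, the troponin C genes Tnnc1 (7754 ± 57.7 TPM) and Tnnc2 (3501 ± 47.3 TPM), Acta1 (5978 ± 195 TPM), the essential light chain gene Myl1 (4866 ± 138 TPM) and the fast troponin T gene Tnnt3 (3414 ± 87.7 TPM). Acta2, known as the smooth muscle actin and also made by differentiating myoblasts, stood beside them, at 4215 ± 119.9 TPM. Secreted and matrix proteins gave 3 of the 20: fibronectin (Fn1, 4533 ± 539.5 TPM), osteopontin (Spp1, 4339.6 ± 52.7 TPM) and the collagen-binding protein Sparc (3729 ± 84.9 TPM). Fn1 also had the most reads of any gene, 5137108 over the 3 libraries, on 11685 exon bases. The actin-monomer-binding thymosins Tmsb4x (4664 ± 147 TPM) and Tmsb10 (3502 ± 52.4 TPM), Tpt1 (4598 ± 229 TPM), a widely expressed growth-related protein, and Eef2 (3135 ± 166 TPM) and Rplp1 (3315 ± 459 TPM) of the translation machinery completed the protein-coding members.

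The remaining 3 of the 20 were non-coding or pseudogene annotations. H19 was the fifth highest feature. Gm42418, a non-coding annotation on chromosome 17 known for collecting ribosomal RNA reads, was at 9136, 9973 and 9484 TPM. Gm10736, a processed pseudogene of only 78 bases, was at 7545, 7736 and 7527 TPM from 57547 reads, a per-length value that rests on its short length. Pseudogene annotations also ranked high further down: Mylf-ps, named for a myosin light chain, was at 2278 ± 72.4 TPM. Processed pseudogenes together held 2.94% of the summed level but 0.397% of reads. How reads shared by near-identical copies were counted is not given in the sources used here, so the values of such pairs are uncertain.

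**Figure D1:**
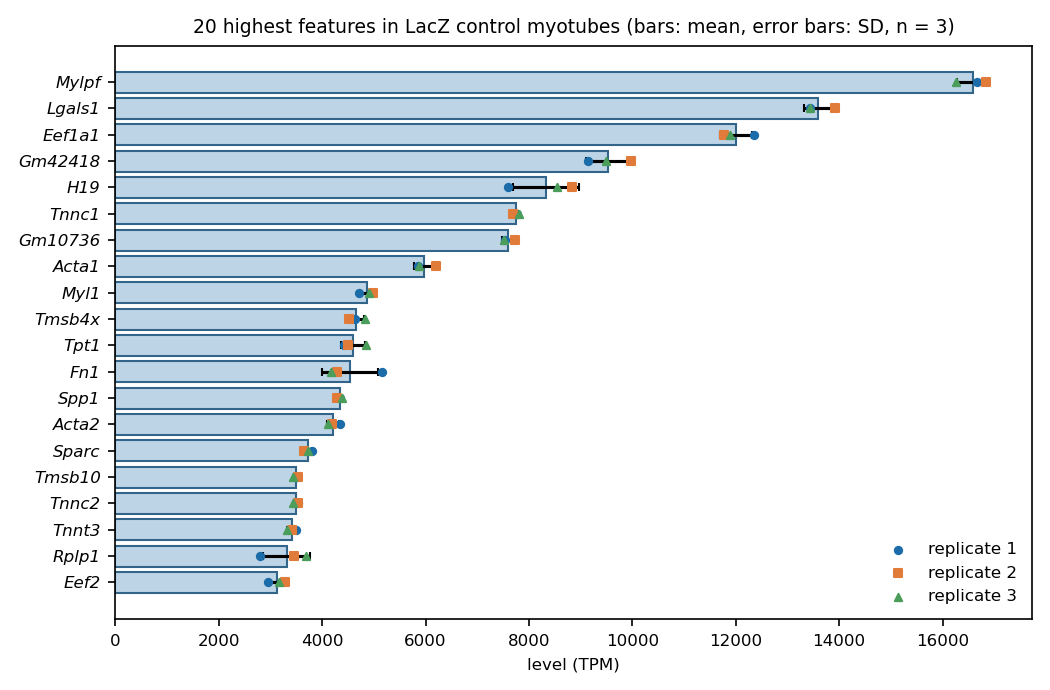
Level of the 20 highest features in LacZ control myotubes, in TPM on a linear axis; bars are means, error bars the SD of 3 libraries, and symbols the single replicates. Mylpf, Lgals1 and Eef1a1 lead, and Fn1, H19 and Rplp1 show the widest spread between replicates.

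Sarcomeric myosin heavy chain RNA, which encodes the motor of the thick filament, came mainly from an embryonic and an adult fast gene together. Embryonic Myh3 made up 45.8 ± 1.19% of the summed level of the 10 sarcomeric heavy chain genes (SD, n = 3) and adult fast Myh1, the IIX isoform, 39.2 ± 0.649%. Myh1 was at 840.0, 775 and 748 TPM, below Myh3 in each library, and the values did not overlap. Adult fast Myh4, the IIB isoform, followed at 233, 206 and 188 TPM with 10.4 ± 0.660% of the family. Neonatal Myh8 was at 40.4 ± 0.517 TPM. Slow Myh7, at 20.3, 21.3 and 20.4 TPM, and fast Myh2, the IIA isoform, at 21.5, 19.5 and 18.3 TPM, were close, and their library values overlapped. Myh7b (7.39 TPM) and the cardiac alpha gene Myh6 (2.16 TPM) were lower, and Myh13 (0.322 TPM) and Myh15 (0.0486 TPM) were under 1 TPM. Outside the sarcomere, non-muscle Myh9 was at 320.1 ± 11.7 TPM, whereas Myh11, the heavy chain of mature smooth muscle, had 63 reads in all and 0.0848 TPM.

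The light chains were dominated by the fast pair. Mylpf held 69.0 ± 0.796% and Myl1 20.2 ± 0.448% of the summed level of 12 light chain genes. Embryonic and atrial Myl4, at 783, 959 and 942 TPM, was lower in replicate 1 than in the others. The slow and ventricular regulatory chain Myl2 was at 41.9 ± 1.12 TPM, its essential partner Myl3 at 0.523 ± 0.182 TPM, and atrial Myl7 had 4 reads in all. With the longest basic transcript of each gene as its length, Myl4 held 11.1% of the family in place of 3.72 ± 0.378%, so the size of its share depends on the length used.

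All 6 actin genes were expressed. Skeletal Acta1 held 43.2 ± 0.924% of the summed actin level and Acta2 30.5 ± 0.830%, the cytoplasmic genes Actb 11.8 ± 0.202% and Actg1 6.30 ± 0.0899%, and cardiac Actc1 7.28 ± 0.104%. Actc1, the actin of the heart and of embryonic skeletal muscle, was at 994, 1019 and 1007 TPM. Acta2 was at 4343, 4195 and 4106 TPM, below Acta1 in every library. Without a correction for length the order of these 2 turned, with 34.3% of actin reads on Acta2 and 34.1% on Acta1. Actg2, the enteric smooth muscle actin, was lowest at 122 ± 0.859 TPM.

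Troponin, the calcium switch of the thin filament, mixed slow and fast subunits. Tnnc1, the slow and cardiac calcium-binding subunit, which embryonic muscle also uses, was 2.22 ± 0.0445 times (mean ratio ± SD over libraries) fast Tnnc2. For the inhibitory subunit, slow Tnni1 (1535, 1626 and 1575 TPM) and fast Tnni2 (1521, 1581 and 1445 TPM) overlapped between libraries, although Tnni1 was the higher within each library, and each held close to 50% of the family. The even split rests on length: Tnni1 held 62.4% with the longest basic transcript and 71.3% in reads alone. Cardiac Tnni3 was at 9.78 ± 0.611 TPM. For the tropomyosin-binding subunit, fast Tnnt3 was highest with 64.0 ± 0.504%, slow Tnnt1 had 21.99 ± 0.260% and cardiac and embryonic Tnnt2 14.04 ± 0.295%. That order rests on length: with the longest basic transcript Tnnt3 held 40.8% and Tnnt2 39.4%, and in reads alone Tnnt2 led with 42.1%. Among tropomyosins, which lie along the actin filament, Tpm2 had 49.7 ± 1.05%, Tpm4 23.9 ± 0.950% and Tpm1 21.97 ± 0.0787%, and Tpm3 stood at 187 ± 2.28 TPM.

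Other filament proteins mixed fast and slow members as well. Actn3, the alpha-actinin of fast fibres, was at 904, 938 and 902 TPM against 59.8, 61.3 and 60.2 TPM for Actn2, the alpha-actinin of all sarcomeres. Mybph, a relative of myosin-binding protein C, was at 1205 ± 73.4 TPM, fast Mybpc2 at 123.1 ± 7.43 TPM, slow Mybpc1 at 22.8 ± 1.58 TPM and cardiac Mybpc3 at 0.260 ± 0.0268 TPM. The calsarcins ran the other way: Myoz2, of slow and cardiac muscle, was at 135, 146 and 146 TPM and fast Myoz1 at 12.1, 12.9 and 11.1 TPM, a ratio of 11.8 ± 1.12. Of 26 scaffold and assembly genes of the sarcomere, 25 were expressed, against 53.8% of all protein-coding genes. They were led by the actin-filament nucleators Lmod3 (379 ± 12.1 TPM) and Lmod2 (241 ± 14.1 TPM) and the M-band protein Myom2 (375 ± 23.7 TPM). The giant genes Ttn (35.8 ± 4.57 TPM) and Neb (107.8 ± 12.1 TPM) were lower per length, although Ttn had 405487 reads. The exception was Cmya5, at 1.17, 0.862 and 0.893 TPM, just short of the threshold in its mean. Muscle intermediate filaments were led by desmin (Des, 2046 ± 78.1 TPM), with vimentin (Vim, 1085 ± 6.63 TPM) and nestin (Nes, 979.5 ± 29.0 TPM), both typical of young or regenerating fibres.

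By list, all 22 adult fast fibre genes and all 10 developmental contractile genes were expressed, with medians of 433 and 822 TPM, against a median of 2.61 TPM over protein-coding genes. Of 15 slow fibre genes, 12 were expressed, with a median of 77.2 TPM. The slow list was led by Casq2, Tnnt1 and the oxygen-binding myoglobin (Mb, 1025, 1229 and 1199.7 TPM), and its members under 1 TPM were Myl3, Sln and Pln. Over all 56 isoform families, 204 pairs of neighbours in the order of levels were compared, and 25 pairs overlapped between libraries, 8 of them with both members expressed. Of these 8, 3 pairs had the same order within every library, with ratios under 1.1: Tnni1 over Tnni2, Actn1 over Actn4 and Igfbp2 over Igfbp6. Together 66 contractile and sarcomere genes held 6.49 ± 0.0870% of the summed level and 3.94% of reads.

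**Figure D2:**
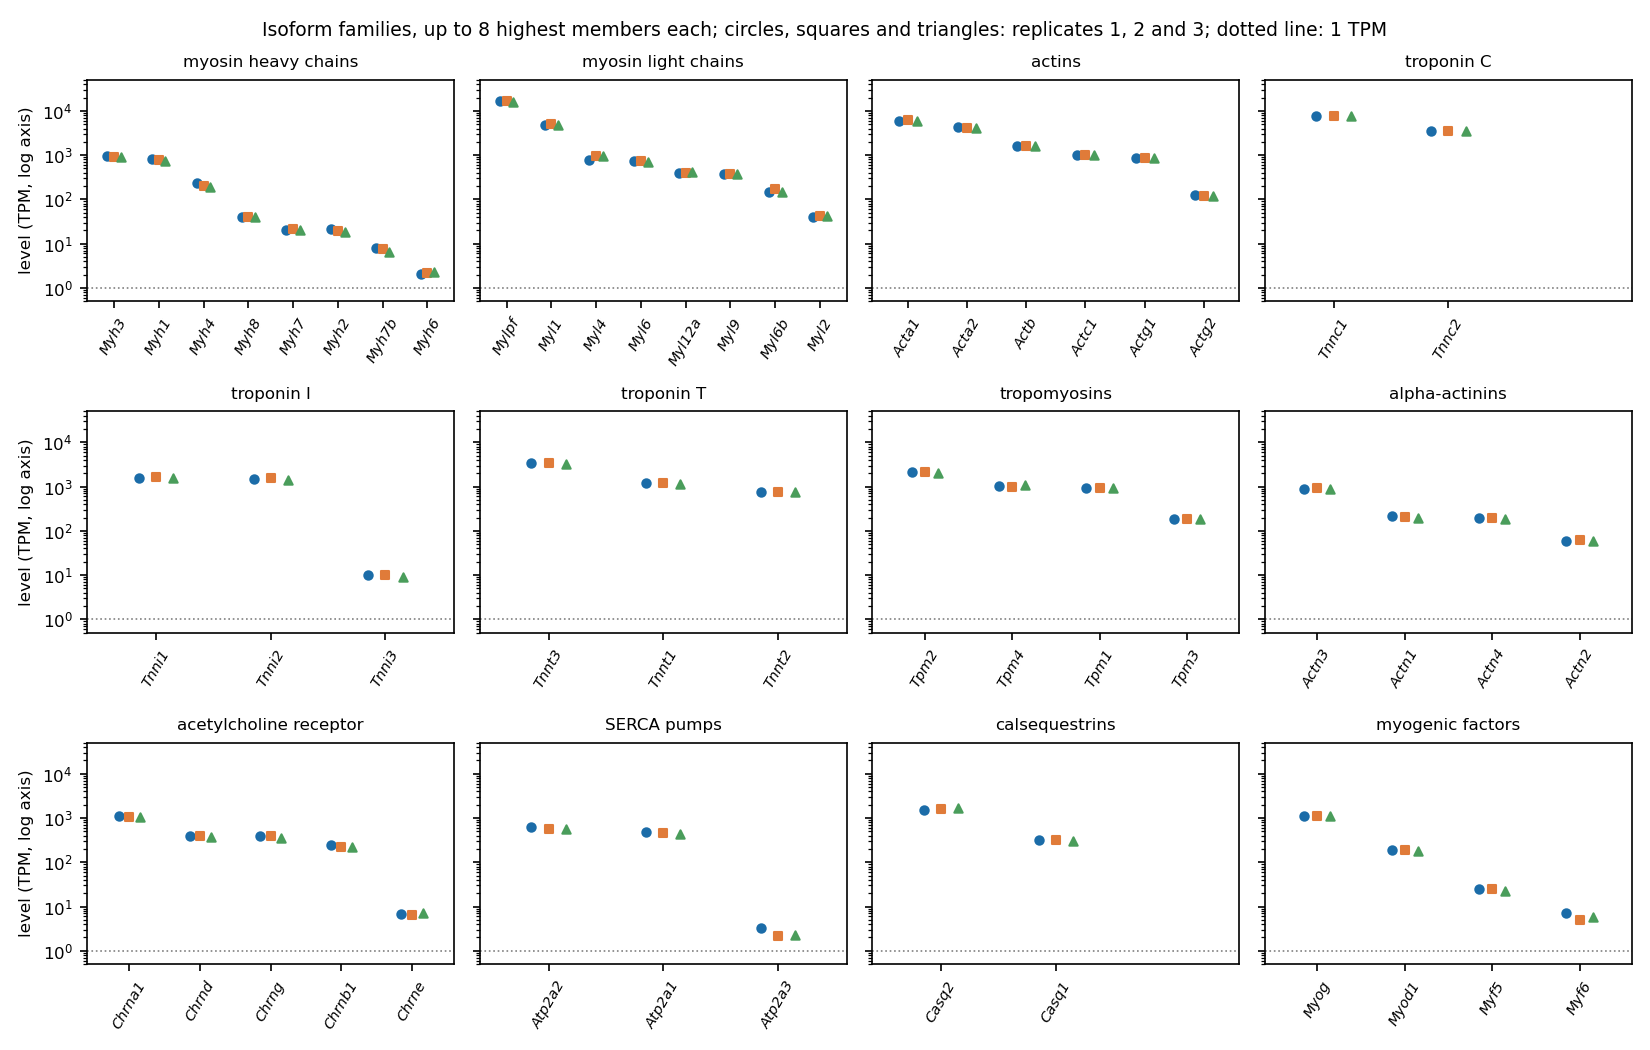
Level (TPM, log axis) of the members of 12 isoform families, up to 8 highest members each; circles, squares and triangles are replicates 1, 2 and 3 and the dotted line marks 1 TPM. Replicates lie almost on top of each other beside the differences between isoforms, except for neighbours such as Tnni1 and Tnni2 or Myh7 and Myh2.

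The proximal promoters of the most abundant actin and light chain gene are shown because muscle genes are known to be bound there by myogenic factors at E-boxes and by serum response factor at CArG boxes. The 250 bases before the RefSeq start are given 5′ to 3′ in GRCm38. Capitals mark every CAGCTG, a form of the E-box that is its own reverse complement. They also mark every CArG box of the strict form, with only A or T between CC and GG. Other forms of the E-box and looser forms of the CArG box were not searched for and are not marked. Mylpf lies on the plus strand with the window chr7:127211358-127211607, and Acta1 on the minus strand with the window chr8:123894776-123895025.
Mylpf: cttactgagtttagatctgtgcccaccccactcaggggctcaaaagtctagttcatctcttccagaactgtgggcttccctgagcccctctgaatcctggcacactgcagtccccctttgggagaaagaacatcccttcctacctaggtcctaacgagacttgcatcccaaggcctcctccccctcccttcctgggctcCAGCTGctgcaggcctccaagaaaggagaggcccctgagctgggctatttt
Acta1: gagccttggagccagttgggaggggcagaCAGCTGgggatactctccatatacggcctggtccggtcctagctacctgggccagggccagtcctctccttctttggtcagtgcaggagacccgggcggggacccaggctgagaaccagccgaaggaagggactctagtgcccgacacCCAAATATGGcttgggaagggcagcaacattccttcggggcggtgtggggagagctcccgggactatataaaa
The Mylpf window holds 1 CAGCTG, starting 51 bases before the start. The Acta1 window holds 1, starting 221 bases before, and a CArG box starting 73 bases before. Counting genes in place of sites, the share with CAGCTG was 10 of 17 for adult fast fibre genes and 4 of 9 for developmental contractile genes. It was 2 of 4 for actins, 6 of 15 for triad genes, 4 of 17 for sarcomere scaffold genes, 3 of 13 for differentiation and fusion factors and 3 of 18 for glycolysis enzymes. The windows of Myog, Myh3, Myh1, Tnnc1, Tnnc2, Casq2 and Eno3, all of them expressed, hold no CAGCTG. Among all 27025 genes with such a window, 14.7% had a CAGCTG in at least 1 window and 1.62% a CArG box. Over all expressed protein-coding genes with a window it was 14.6%, and over silent ones 9.78%. A match describes letters in the window and no binding was measured.

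For the acetylcholine receptor of muscle, the ion channel that answers motor nerve signals, RNA of the fetal subunit far exceeded that of the adult one. The gamma subunit Chrng, which the receptor carries before innervation, was at 391, 387 and 362 TPM. The epsilon subunit Chrne, which replaces it at the adult end plate, was at 6.90, 6.36 and 7.196 TPM, far below in every library. Chrna1, which binds acetylcholine and is present in 2 copies in the receptor, was at 1129, 1075 and 1080.5 TPM, Chrnd at 393, 383 and 369 TPM and Chrnb1 at 242, 226 and 226 TPM. Chrnd and Chrng overlapped. Partners of the receptor were present: Rapsn, which clusters it, at 236 ± 10.0 TPM, the kinase Musk at 61.1 ± 4.79 TPM, its agrin co-receptor Lrp4 at 99.6 ± 5.88 TPM and the adaptor Dok7 at 26.1 ± 1.37 TPM. Of 18 junction genes 17 were expressed, against 53.8% of all protein-coding genes. The exception was the neuregulin receptor Erbb4 at 0.00497 TPM, and Ache, which breaks down acetylcholine, was at 3.75 ± 0.188 TPM.

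The windows of 3 receptor genes are shown because the fetal and adult subunits can be compared there, in the same layout, with CAGCTG in capitals. Chrna1 (chr2:73580339-73580588) and Chrne (chr11:70619195-70619444) lie on the minus strand and Chrng (chr1:87205561-87205810) on the plus strand.
Chrna1: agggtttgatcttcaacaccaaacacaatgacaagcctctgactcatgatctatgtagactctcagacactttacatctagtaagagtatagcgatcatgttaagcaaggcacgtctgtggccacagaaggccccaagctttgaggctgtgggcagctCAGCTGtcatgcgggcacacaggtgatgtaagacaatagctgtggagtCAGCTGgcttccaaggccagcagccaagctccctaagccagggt
Chrng: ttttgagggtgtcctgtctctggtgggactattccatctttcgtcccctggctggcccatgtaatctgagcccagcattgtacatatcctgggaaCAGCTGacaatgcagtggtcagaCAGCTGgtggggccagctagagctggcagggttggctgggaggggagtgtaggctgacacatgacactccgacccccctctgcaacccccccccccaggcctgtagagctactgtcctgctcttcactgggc
Chrne: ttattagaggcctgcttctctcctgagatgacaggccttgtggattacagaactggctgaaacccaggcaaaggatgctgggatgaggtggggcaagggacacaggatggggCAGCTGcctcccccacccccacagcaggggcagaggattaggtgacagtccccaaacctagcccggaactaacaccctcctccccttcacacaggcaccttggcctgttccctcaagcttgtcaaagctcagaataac
Chrna1 and Chrng hold 2 CAGCTG each, and Chrne holds 1. At least 2 in a window were found for 1.39% of all genes with a window. The window of Chrnb1, not shown, holds none. In Chrna1 they start 92 and 44 bases before the start, in Chrng 155 and 132, and in Chrne 138. The order of the levels of the subunits did not follow the number of matches.

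Genes of calcium release and uptake were in place, with slow or cardiac members often in front. RNA of the calcium-storing protein of the sarcoplasmic reticulum came mainly from cardiac Casq2, at 1523, 1639 and 1675 TPM, 5.20 ± 0.288 times skeletal Casq1 (312, 312 and 307 TPM). The calcium pump came from Atp2a2, of slow and cardiac muscle, at 629, 576 and 564 TPM and from fast Atp2a1 at 496, 469.9 and 433 TPM, with shares of 55.7 ± 0.742% and 44.0 ± 0.752%. The small pump inhibitors phospholamban (Pln, 21 reads) and sarcolipin (Sln, 17 reads) were close to 0, whereas myoregulin (Mrln) was at 31.7 ± 1.08 TPM and the pump activator Strit1, also called DWORF, at 28.8 ± 1.24 TPM. The release channel was skeletal Ryr1 (58.4 ± 5.90 TPM) with 86.3 ± 0.204% of its family, beside Ryr3 (9.20 ± 0.813 TPM), and cardiac Ryr2 had 0.0315 TPM. Its voltage sensor was Cacna1s at 83.2, 75.2 and 70.7 TPM, while the other L-type pore genes Cacna1c, Cacna1d and Cacna1f were each below 0.1 TPM. Scn4a, the sodium channel of adult muscle, was at 26.4 ± 1.93 TPM. Bin1, which shapes the transverse tubules, led the list at 781 ± 24.5 TPM, and the adult chloride channel Clcn1 was near the end at 1.23 ± 0.265 TPM.

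Energy metabolism used muscle forms in glycolysis and mixed forms in respiration. All 18 glycolysis genes were expressed and held 1.34 ± 0.0798% of the summed level. The muscle enolase Eno3 was at 2400.3, 2489 and 2290.1 TPM, 4.03 ± 0.379 times the general Eno1. A further enolase gene, Eno1b, was at 231 TPM and is not part of that ratio. Aldoa held 99.7 ± 0.0128% of aldolases, Ldha 96.5 ± 0.281% of lactate dehydrogenases, muscle Pfkm 82.9 ± 1.48% of phosphofructokinases and muscle Pygm 79.4 ± 0.681% of glycogen phosphorylases. With the longest basic transcript as length, Pfkm held 71.7%, and Eno3 held 58.5% of enolases in place of 73.5%. Hexokinase was divided between Hk2 (57.5, 50.8 and 52.2 TPM) and Hk1 (49.7, 49.4 and 48.4 TPM), whose order turned with the longest basic transcript as length, where Hk1 had 62.7%. The insulin-responsive glucose transporter Slc2a4, the main one of adult muscle, was at 2.80, 2.36 and 2.44 TPM, against 63.7, 75.1 and 73.9 TPM for Slc2a1, the basal transporter, and 68.0, 69.7 and 63.6 TPM for Slc2a6, whose values overlapped with those of Slc2a1. Creatine kinase was mainly Ckm (67.9 ± 1.02%) with Ckb (27.8 ± 1.03%), and mitochondrial Ckmt2 was at 17.5 ± 0.802 TPM. The share of Ckm was 55.0% with the longest basic transcript.

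Respiratory chain genes encoded in the nucleus were expressed throughout: 78 of 78, with 2.33 ± 0.0513% of the summed level. The highest were Atp5b (1275 ± 6.79 TPM), the catalytic subunit of ATP synthase, and Cox6b1 (1120.0 ± 23.8 TPM) of cytochrome c oxidase. In the 3 subunits of cytochrome c oxidase that have a form for heart and skeletal muscle, that form was the lower one. Muscle Cox6a2 was at 228, 241 and 258 TPM against 349, 363 and 380.5 TPM for general Cox6a1. Muscle Cox7a1 had 12.1 ± 0.793% of its pair and muscle Cox8b 43.2 ± 1.44% of its family. The same held for the adenine nucleotide carriers, with Slc25a4 of heart and muscle at 528, 562 and 556 TPM and general Slc25a5 at 783, 797 and 803 TPM. Of the PGC-1 coactivators, the genes at the centre of the series, Pprc1 was at 22.6, 20.8 and 19.8 TPM, Ppargc1b at 5.76, 5.89 and 5.95 TPM and Ppargc1a at 2.15, 1.94 and 2.04 TPM, so Ppargc1a was the lowest of the 3 in each control library. Their partner receptors Esrra (22.6 ± 2.02 TPM) and Ppard (14.8 ± 0.498 TPM) were higher than Esrrg (1.19 ± 0.178 TPM) and Ppara (0.377 ± 0.0753 TPM). In fatty acid oxidation 21 of 22 genes were expressed, led by Acadl (329 ± 5.00 TPM) and Acaa2 (319 ± 4.34 TPM). The value of Cpt1b, the muscle carnitine acyltransferase, 0.113 TPM, is uncertain because only 18.6% of its exon bases are free of another gene on the same strand. All 37 genes of the mitochondrial chromosome are listed at 0 reads, so the mitochondrially encoded subunits could not be set beside these.

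Factors of commitment, cell cycle exit and fusion were high, and factors of earlier stages were lower but present. Myog led the myogenic factors with 83.8 ± 0.253%, and Myod1, at 188, 187 and 183 TPM, came next. Myf5, a factor of myoblasts, was at 25.0, 25.4 and 22.7 TPM, and Myf6, a factor of mature fibres, at 7.30, 5.05 and 5.86 TPM. The fusion proteins Mymk (1375, 1341 and 1279 TPM) and Mymx (186 ± 11.5 TPM), which merge myoblast membranes, were high, and Mymk led the 20 differentiation and fusion genes, of which 18 were expressed. Cdkn1a, the inhibitor that holds differentiating myoblasts out of the cycle, was at 1302, 1297 and 1266 TPM and held 89.5 ± 0.261% of the CDK inhibitors. Among D cyclins Ccnd3, the one known to be induced in differentiating muscle, had 84.8 ± 1.02% and Ccnd1 11.6 ± 0.659%. Mef2c (101, 93.9 and 97.6 TPM) and Mef2d (101, 97.9 and 92.3 TPM) overlapped, and Mef2a was at 52.99 ± 3.24 TPM.

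Genes of proliferation and of satellite cells were not at 0. All 18 proliferation genes were expressed, against 53.8% of all protein-coding genes, and their median was 9.16 TPM. Mki67, which marks cycling cells, was at 10.7, 8.70 and 10.3 TPM, the mitotic kinase gene Cdk1 at 17.03, 16.5 and 17.2 TPM and Top2a at 17.8, 14.2 and 17.4 TPM. Rrm2, which makes deoxynucleotides, was the highest at 137 ± 2.93 TPM. Pax7, the factor of satellite cells and reserve myoblasts, was at 18.5, 18.11 and 17.7 TPM, while its relative Pax3 had 7 reads over the 3 libraries and the quiescence marker Calcr had 1. Of 20 myoblast markers 17 were expressed, against the same 53.8%. They were led by Cdh15, the M-cadherin of myoblasts and myotubes, at 240.2, 242 and 241 TPM. Which cells in the culture carried these RNAs was not measured.

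Regulators of myogenesis and of muscle splicing were dominated by a few members of their families. Among Id proteins, which block the DNA binding of myogenic factors, Id2 was at 46.2 ± 1.31 TPM, Id3 at 31.6 ± 1.87 TPM and Id1 at 19.997 ± 1.04 TPM. Of 9 Pax genes Pax7 alone was expressed. Rbfox2, a splicing factor of muscle and other tissues, was at 225, 212.4 and 215 TPM and Rbfox1, the form of adult muscle, heart and brain, at 12.003, 11.96 and 11.98 TPM. Mbnl1, the muscleblind protein that promotes adult splicing, was at 85.9 ± 5.18 TPM and fetal-type Mbnl3 at 1.75 ± 0.0575 TPM. Celf1, which opposes it, was at 87.4 ± 3.30 TPM. The retinoblastoma gene Rb1, needed for lasting cell cycle exit, was at 75.0 ± 2.78 TPM, its relative Rbl2 at 55.7 ± 2.41 TPM and Rbl1, typical of cycling cells, at 6.22 ± 0.177 TPM.

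The fusion list also held genes without reads. Klhl41, a stabiliser of thin filaments, was at 567 ± 7.40 TPM and the adhesion genes Jam2 and Cdh2 at 97.5 ± 2.98 and 65.9 ± 2.47 TPM. Nphs1 and Adgrb1, both described in mouse myoblast fusion, had no read, which allows at most 0.00467 and 0.00428 TPM.

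Utrophin exceeded dystrophin per length: Utrn, which links the cytoskeleton to the membrane early in development, was at 63.7, 57.2 and 58.0 TPM, and Dmd, its adult counterpart, at 5.88, 5.63 and 5.999 TPM, a ratio of 10.2 ± 0.583. Likewise Eef1a1 held nearly all of its pair, and Eef1a2, the form of adult muscle and neurons, was at 1.51, 1.16 and 1.31 TPM. Myof, a ferlin of fusing myoblasts, was at 127 ± 8.46 TPM and Dysf, the ferlin of membrane repair, at 34.9 ± 2.40 TPM. Cav3, the muscle caveolin, was at 233, 257 and 244 TPM and overlapped with Cav1, the general one, at 241, 237 and 249 TPM. The integrin alpha chain of the muscle membrane, Itga7, held 61.3 ± 1.05% of 12 alpha chains. Of its laminin ligands Lama5 was at 52.4, 49.7 and 46.4 TPM and Lama2, the alpha chain of adult muscle basement membrane, at 30.6, 26.9 and 27.5 TPM. Tubulin came from several genes, with Tuba1a (1048 ± 28.2 TPM), Tuba1b (676 ± 8.35 TPM), Tubb2a (693 ± 5.08 TPM), Tubb6 (534 ± 40.3 TPM), Tubb2b (465 ± 4.38 TPM) and Tubb5 (411 ± 14.4 TPM) highest. These genes are close copies of each other, so their division is uncertain.

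Beyond muscle genes, protein synthesis and the extracellular matrix held large shares of the summed level. The 84 cytosolic ribosomal protein genes held 7.38 ± 0.178% of the summed level, and 81 of them were expressed. Translation factors held 2.48%. Chaperones held 1.42%, led by Hsp90ab1 (2936 ± 68.6 TPM) and the collagen chaperone Serpinh1 (1403 ± 35.6 TPM). Cryab, a small chaperone of desmin and other filaments, was at 1015 ± 22.2 TPM, and the heat-inducible Hspa1a at 1.71 ± 0.230 TPM. Of 35 matrix genes 31 were expressed with 2.02 ± 0.108% of the level. After Fn1 and Sparc came Thbs1 (2803 ± 171 TPM), Bgn (1788 ± 69.7 TPM) and Col3a1 (1655 ± 45.2 TPM). Collagen I genes were lower, Col1a2 at 334 ± 8.26 TPM and Col1a1 at 175 ± 7.22 TPM, and elastin (Eln, 23 reads) and Fbn2 (0 reads) were at or near 0.

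Housekeeping and stress systems were mostly expressed, against 53.8% of all protein-coding genes. All 15 genes of the citric acid cycle were expressed, with a median of 168 TPM. Of 17 proteasome core genes 15 were expressed, with a median of 221 TPM. The exceptions were the immunoproteasome subunits Psmb8 (0.194 ± 0.0380 TPM) and Psmb9 (0.0512 ± 0.0311 TPM), which interferon is known to induce, while the corresponding standard subunits Psmb5 and Psmb6 were at 213 ± 10.9 and 344 ± 6.50 TPM. Of 18 genes of the integrated stress response and related pathways 17 were expressed, with a median of 86.5 TPM. They included the serine synthesis genes Psat1 (165 ± 12.6 TPM) and Phgdh (139.8 ± 2.02 TPM). Gdf15, a secreted stress factor, was at 3.81 ± 0.317 TPM and the cystine transporter gene Slc7a11 at 0.748 ± 0.252 TPM. Of 15 histone genes 9 were expressed, and Hist1h1c (396 ± 12.8 TPM) and Hist1h2bc (185 ± 6.11 TPM) were far above Hist1h1b (1.10 ± 0.164 TPM). In polyadenylated RNA, histone messages that lack a poly(A) tail are not measured in full. Energy sensing by AMPK used Prkag1 (163 ± 5.33 TPM) and the muscle gamma subunit Prkag3 (122 ± 5.15 TPM), with catalytic Prkaa1 (92.4 ± 3.51 TPM) above Prkaa2 (14.8 ± 0.676 TPM), the main form of adult muscle.

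Among 611 genes of transcription factor and cofactor families, 364 were expressed, or 59.6%, against 53.8% of all protein-coding genes, and 22 were at 100 TPM or more. Myog was the highest. It was followed by Nfe2l1 (668 ± 21.7 TPM), which controls proteasome genes, Atf4 (531 ± 43.0 TPM) of the amino acid response, and Hes6 (266 ± 16.8 TPM), a partner of myogenic differentiation. Wwtr1 (196 TPM), Myod1, Xbp1 (177 TPM), Tbx15 (172 TPM), Nfe2l2 (169 TPM), Cbfb (165 TPM), Bhlhe40 (163 TPM), Klf6 (149.9 TPM), Creb3 (146 TPM), Atf5 (146 TPM) and Csrp3 (139 TPM) completed the 15 highest. Tbx15, a T-box factor known from limb skeleton and fast muscle fibres, was at 173, 171 and 173 TPM.

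Hox genes, which record a cell's position along the body axis, were switched on by whole clusters. All 11 genes of the A cluster and all 9 of the C cluster were expressed, against 0 of 10 of the B cluster and 0 of 9 of the D cluster. The summed level was 129 ± 0.643 TPM for A, 187 ± 1.07 TPM for C and 0.870 ± 0.210 TPM for B. In the D cluster 8 genes had no read, and Hoxd9 had 2. Hoxd3 and Hoxd4 have under 50% of exon bases free of another gene, whereas Hoxd1, Hoxd8, Hoxd12 and Hoxd13 are wholly free. Hoxc10 and Hoxa10, of the posterior part of the clusters, were the highest, at 57.1, 57.3 and 58.5 and at 40.04, 40.1 and 39.5 TPM. Hoxc6 followed at 37.7, 37.4 and 37.3 TPM and Hoxa11 at 33.0, 33.3 and 32.6 TPM. Hoxc11 (28.6 TPM), Hoxa7 (21.2 TPM), Hoxc4 (18.4 TPM), Hoxc13 (17.3 TPM), Hoxc9 (16.5 TPM) and Hoxa9 (12.02 TPM) came after them. Hoxc5 was at 6.51 TPM and Hoxa2 at 1.19 TPM, and Hoxc8, Hoxc12, Hoxa3, Hoxa4, Hoxa5, Hoxa6 and Hoxa13 lay between them. Hotair, the non-coding RNA of the C cluster, was at 9.68, 7.67 and 8.66 TPM, and Hottip, beside the A cluster, had 7 reads.

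**Figure D3:**
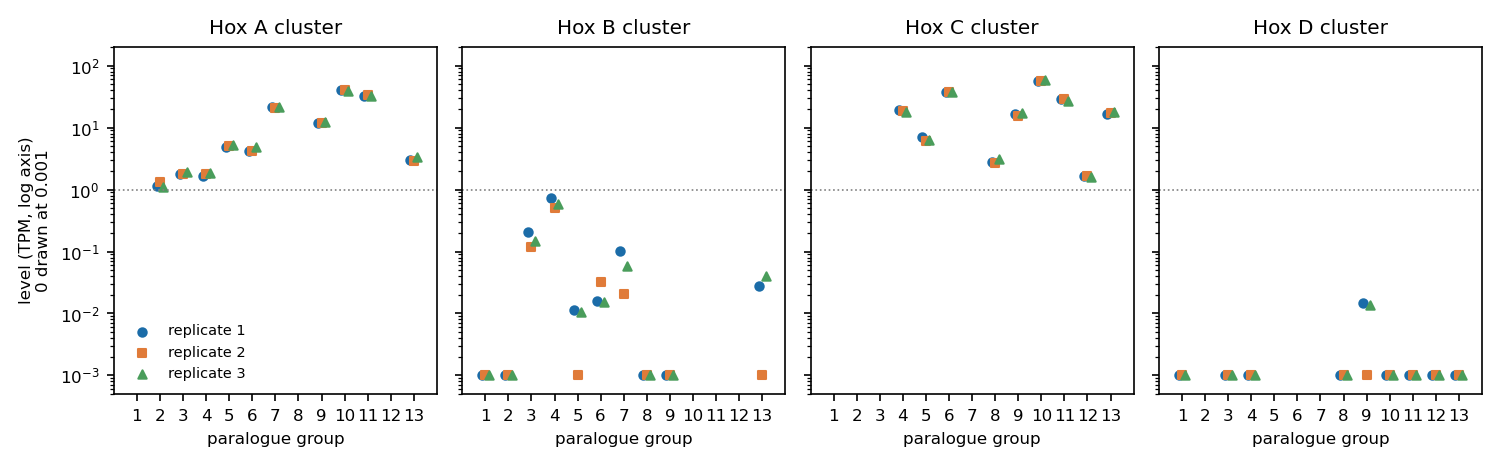
Level (TPM, log axis) of Hox genes by paralogue group in the 4 clusters; symbols are the 3 replicates, values of 0 are drawn at 0.001 and the dotted line marks 1 TPM. Every A and C gene drawn lies above the line and every B and D gene below it.

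Of genes that set limb identity, Tbx5, of the forelimb, and Pitx1, of the hindlimb, had no read in any library, which allows at most 0.00662 and 0.0116 TPM. Tbx4, of the hindlimb, was at 1.94 ± 0.0269 TPM. These genes were chosen after their values were seen.

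Long non-coding RNA held 2.87% of the summed level, and 884 of 9939 genes were expressed, against 25.4% of all genes. That share includes Gm42418, at 9531 TPM, which is known for collecting ribosomal RNA reads, so it is likely too high. After Gm42418 and H19 the highest were Malat1 (1344, 1044 and 1107 TPM), Gm10076 (971 ± 77.5 TPM, 384 bases) and Xist (309 ± 28.2 TPM). Gm47015 (211.8 TPM), Gm32618 (169 TPM), 2410006H16Rik (163 TPM), Gm36377 (156 TPM) and 2900097C17Rik (143 TPM), none with a role given here, completed the 10 highest. Xist, the RNA that coats the inactive X chromosome, was present while the Y-linked genes Ddx3y, Uty and Eif2s3y had no read and Kdm5d had 1. The X-linked counterparts Ddx3x, Eif2s3x, Kdm5c and Kdm6a were at 409.9, 151, 73.6 and 24.8 TPM.

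H19 (chr7:142575529-142578143, mm10, minus strand) is transcribed from the maternal chromosome and is the precursor of miR-675, which lies within it. Its 2 mature strands, from RefSeq on GRCm38, and 3 microRNAs inside other expressed transcripts are shown because these hosts' RNA was measured here. Capitals mark the seed, bases 2 to 8, which pairs with targets.
miR-675-5p: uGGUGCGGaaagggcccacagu
miR-675-3p: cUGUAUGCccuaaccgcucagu
miR-22-3p: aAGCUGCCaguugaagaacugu
miR-499-5p: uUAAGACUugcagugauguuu
miR-208b-3p: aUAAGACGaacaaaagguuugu
The miR-675 strands lie at chr7:142577112-142577133 and chr7:142577078-142577099 inside H19. The host of miR-22 (chr11:75463772-75463793), Mir22hg, was at 127 ± 6.29 TPM. Myh7b, which holds miR-499 (chr2:155622893-155622913), was at 7.99, 7.58 and 6.61 TPM, and slow Myh7, which holds miR-208b (chr14:54975710-54975731), at 20.7 ± 0.599 TPM. Each microRNA lies on its host's strand. Libraries of polyadenylated RNA do not measure mature microRNAs, so the host level says nothing of the level of the microRNA.

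Imprinted genes, which are expressed from 1 parental copy, ranged from very high to silent. Of 30 listed, 14 were expressed and 7 silent, or 46.7% expressed, against 53.8% of protein-coding genes and 25.4% of all genes. H19 made up most of their summed level (9029 TPM). Its neighbour Igf2, the growth factor that shares its enhancers, was listed at 0.201, 0.184 and 0.213 TPM from 111 reads. Only 37.2% of Igf2's exon bases are free of the read-through annotation Gm49394, itself at 0.0628 TPM with 24.1% free. Over its free bases alone Igf2 came to 0.537 TPM. Whether these bases belong to its main transcript was not tested, so the level of Igf2 is uncertain. On chromosome 12 the imprinted domain from Dlk1 to Dio3 was almost without reads: Dlk1, Meg3, Rtl1 and Mirg had 0, Rian 2 and Dio3 1 in all 3 libraries together. For Dlk1 a count of 0 allows at most 0.00547 TPM and for Meg3 0.00171 TPM. Each of the 6 has over 90% of its exon bases free of other genes. Of the genes outside, Begain, next to Dlk1, was at 0.120 TPM, and beyond it Wdr25 was at 6.75 TPM and Wars at 71.5 TPM. Past Dio3, Ppp2r5c was at 59.8 TPM. Gnas (347 ± 5.36 TPM), Peg3 (106 ± 6.87 TPM), Igf2r (58.8 ± 5.31 TPM) and Mest (45.2 ± 3.32 TPM) were the next highest imprinted genes, and the maternally expressed inhibitor Cdkn1c was at 10.2 ± 0.937 TPM.

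A second pair of growth regulators was silent. Cdkn2a and Cdkn2b, adjacent inhibitors of cyclin-dependent kinases on chromosome 4 that halt the cycle in ageing and stressed cells, had no read in any library. A count of 0 allows at most 0.0264 TPM for Cdkn2a and 0.0223 TPM for Cdkn2b, and no other gene on the same strand shares their exon bases. The next protein-coding gene to one side, Mtap, was at 78.0, 74.2 and 77.1 TPM, and the next to the other side, Dmrta1, had 0 reads. Whether the DNA of Cdkn2a and Cdkn2b is present in these cells was not tested. The other inhibitors Cdkn1b (67.2 ± 1.67 TPM), Cdkn2d (52.3 ± 1.39 TPM) and Cdkn2c (21.04 ± 0.393 TPM) were expressed.

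Families of sensory and lymphocyte receptors and of hair proteins were mostly silent. Of 1136 olfactory receptor genes 1003 had no read (88.3%, against 22.1% of all protein-coding genes) and 1 was expressed, Olfr9 at 1.37 ± 0.253 TPM. Among vomeronasal receptors 287 of 332 were silent, among keratin-associated proteins 52 of 57, and among T cell receptor and immunoglobulin segments 394 of 457. Claudins, the seals of epithelia, had 2 of 23 expressed and 8 silent. Glutamate receptors had 1 of 24 expressed, with 5 silent, a share near that of all protein-coding genes, and the others at low levels. Some members of such families stood out and were named after their values were seen: the taste receptor Tas1r1 was at 23.2, 25.9 and 24.3 TPM, and the keratin Krt80 at 46.6 ± 2.17 TPM. At the other end, 77 of 78 mitochondrial ribosomal protein genes and 326 of 396 zinc finger genes named Zfp were expressed.

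Markers of other cell types were mostly low. Of 181 markers in 16 lists, 133 were below 1 TPM in the mean, or 73.5%, against 45.7% of all protein-coding genes. No read was counted for 39 of them, or 21.5%, which is near the 22.1% of all protein-coding genes. None of 10 lymphocyte, 10 endothelial, 12 hepatocyte or 14 germ and pluripotent cell markers was expressed. Of the macrophage markers Cd14 (9.33 ± 0.309 TPM) and Cd68 (2.59 ± 0.247 TPM) were expressed, while the defining Ptprc had 15 reads, Adgre1 1 and Csf1r 115. In the cardiac list Tnni3 (9.78 ± 0.611 TPM), Gata4 (7.52 ± 0.305 TPM) and Nppb (3.80 ± 0.379 TPM) led, and Nkx2-5 was at 0.258 TPM with Tbx5, Hand1 and Hand2 at 0 reads. Of 10 smooth muscle markers 8 were expressed, against 53.8% of all protein-coding genes, and the median was 80.7 TPM. They included Acta2, Des, Tagln (485 ± 2.46 TPM) and Actg2. The other 2, Myh11 and its driver Myocd (9 reads), were at 0.1 TPM or less.

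Fibroblast genes were split. Col3a1, Ly6a (786, 816 and 849.8 TPM), a surface antigen also carried by C2C12 cells, and Pdgfrb (200.1 ± 18.7 TPM) were high, whereas Pdgfra was at 8.64 ± 0.392 TPM, Dpt at 2.91 ± 0.634 TPM and Thy1 had 8 reads. Of 14 osteoblast or chondrocyte genes 4 were expressed, or 28.6%, against 53.8% of all protein-coding genes. Spp1 was the only one of the 14 above 100 TPM, and Bglap, Ibsp, Acan and Col2a1 were all below 1 TPM. Of 7 tendon markers 3 were expressed, or 42.9%, against the same 53.8%, with a summed level of 178 TPM. Scx, a factor of tendon cells, was the highest at 112, 121 and 125 TPM, but Tnmd, a marker of mature tendon, had 11 reads. Of 13 neuronal genes 5 were expressed, among them Stmn2 (103, 104 and 97.5 TPM) and Tubb3 (79.6 ± 5.02 TPM), both microtubule proteins. Snap25, Syt1 and Gad1 had no read. Cebpa, a factor of adipocytes, was at 25.3 ± 1.02 TPM and Pparg at 6.81 ± 0.348 TPM, with Adipoq at 5 reads and Plin1, Lep and Ucp1 at 1 each. Of 12 epithelial markers 4 were expressed, the highest being Krt14 at 20.4 ± 1.79 TPM, with its partner Krt5 at 0 reads. The pancreatic genes Cela1 (23.4 ± 1.62 TPM) and Ins2 (5.82 ± 0.541 TPM) were expressed, and the other insulin gene Ins1 had no read. The Ins2 annotation spans chr7:142678656-142743381. Where in it the 743 reads lie was not examined, so they need not come from insulin messenger RNA.

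**Figure D4:**
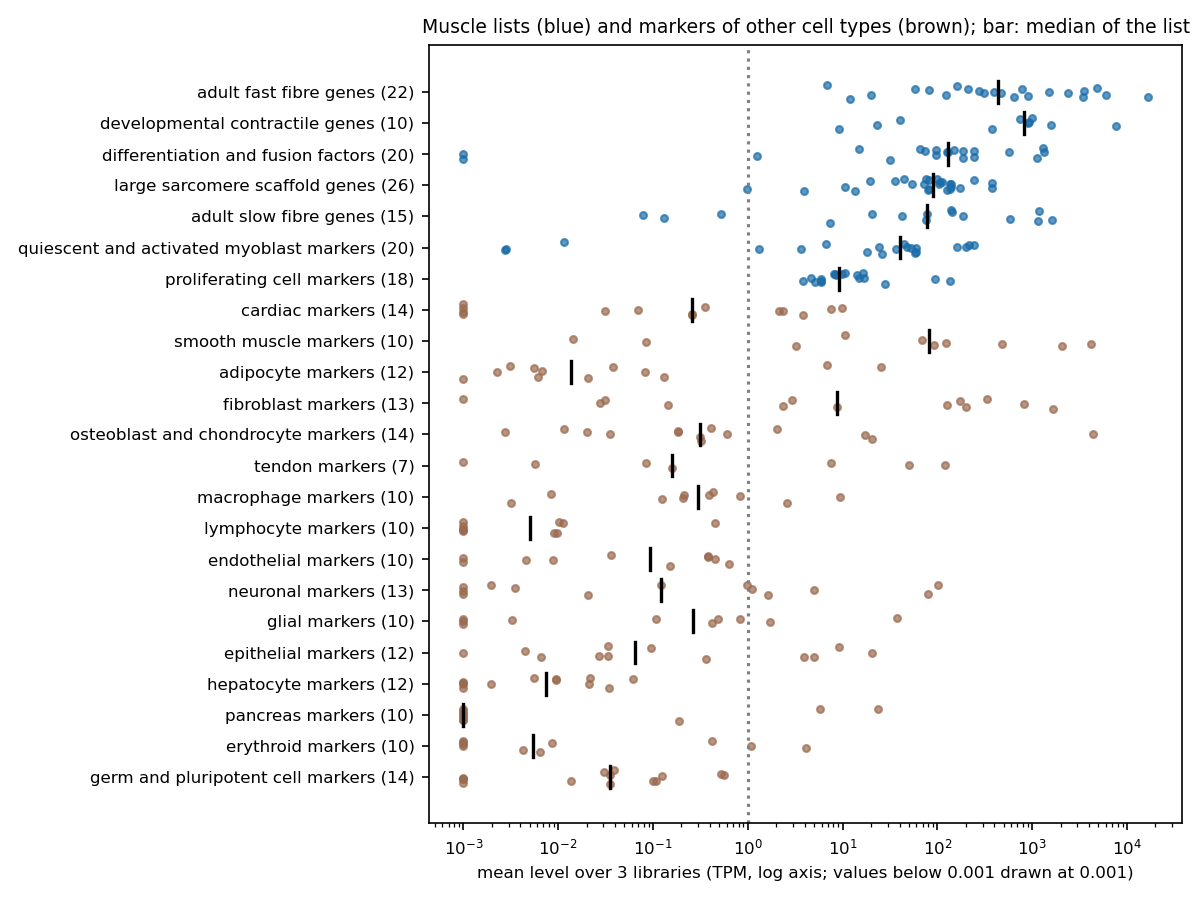
Mean level over the 3 libraries (TPM, log axis) of each gene in 7 muscle lists, in blue, and 16 lists of other cell types, in brown; the bar is the median of the list, the number of genes is in brackets and the dotted line marks 1 TPM. The muscle lists centre above 1 TPM and the others below it, apart from smooth muscle and fibroblast genes.

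Among growth and signalling genes, Igfbp5, an IGF-binding protein induced in differentiating myoblasts, was at 1739, 1506 and 1515 TPM and held 56.8 ± 2.52% of its family. Igf1 was at 32.9 ± 3.35 TPM, its receptor Igf1r at 16.1 ± 1.29 TPM and the insulin receptor Insr at 15.8 ± 1.09 TPM. Myostatin (Mstn), which limits muscle growth, was at 0.173, 0.177 and 0.308 TPM, against 50.03 ± 0.728 TPM for its relative Gdf11 and 106.9 ± 1.29 TPM for its inhibitor follistatin (Fst). Of 22 FGF ligand genes 7 were expressed, against 53.8% of all protein-coding genes. They were led by the stress hormone Fgf21 at 250.4, 194 and 209.9 TPM. Tgfb3 (237 ± 7.004 TPM), Vegfa (163 ± 4.17 TPM) and Bmp4 (94.5 ± 2.08 TPM) were other secreted factors of high level. For hormone receptors Adipor1 (145 ± 3.43 TPM), the growth hormone receptor Ghr (71.0 ± 1.62 TPM), the glucocorticoid receptor Nr3c1 (61.8 ± 1.70 TPM) and the thyroid receptor Thra (50.4 ± 0.755 TPM) were expressed, while the other thyroid receptor gene Thrb had 12 reads.

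Because the cells had received an adenovirus, entry and sensing genes were listed too. Cxadr, the attachment receptor of common adenoviruses, was at 4.11, 3.92 and 4.09 TPM, and the entry integrin chains Itgb5 and Itgav were at 464 ± 13.8 and 62.5 ± 2.37 TPM. Ifnb1 had no read. Of 22 interferon response genes 12 were expressed, near the 53.8% of all protein-coding genes, with a median of 1.31 TPM. Bst2 (35.6 ± 3.15 TPM) and Isg15 (20.4 ± 1.87 TPM) were among the highest, and Rsad2 (0.146 TPM), Oas1a (0.0499 TPM) and Oas2 (0.00950 TPM) were low. With no uninfected cells in the series, a response to the vector cannot be told apart from the basal level.

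The 3 libraries were alike, with a median coefficient of variation (CV, the SD as a share of the mean) of 3.43% over the 8803 protein-coding genes at 10 TPM or more. Of these, 118 genes varied by over 10% and 5 by over 20%. Replicate 1 stood apart from the others: the chi-square per degree of freedom between read counts was 15.3 and 14.7 for the pairs with replicate 1 and 7.08 for replicates 2 and 3. No pair agreed within sampling noise, so none was treated as 1 library deposited more than once. Whether the libraries come from separate cultures is not shown by this. Over all features of 10 TPM or more, the 10 with the highest CV were mostly short, 7 of them under 200 bases with few reads: Gm26109, Gm22009, Mir23a, Ighd4-1, Mir6999, Mir206, Gm23301, Tpi-rs11, Ak4 and Mir3100. Among protein-coding genes of 10 TPM or more, a set chosen after the short features were seen, the most variable were Ak4, Trib3, Car9, Extl1, Atf3, Mif, Prr9, 3425401B19Rik, Dpm3 and Pigyl. Ak4, a mitochondrial adenylate kinase, was at 7.85, 13.2 and 12.5 TPM and Car9, a carbonic anhydrase known to be induced by low oxygen, at 25.7, 41.0 and 35.2 TPM, both lowest in replicate 1. Mif was at 385, 556 and 547 TPM and Bnip3, a mitophagy receptor also known to be induced by low oxygen, at 195, 270.2 and 252 TPM, again lowest in replicate 1. Other genes with this known induction varied less, with a CV of 13.0% for Pdk1 and 9.14% for Egln3. Ndrg1, at 132, 142 and 137 TPM, had a CV of 3.57%, near the median. They and Bnip3 were named after their values were seen. Trib3 (31.5, 19.9 and 23.5 TPM) and Atf3 (15.3, 9.92 and 11.6 TPM), targets of the integrated stress response, were highest in replicate 1, and Atf4 was at 580.1, 501 and 511 TPM. Asns, an amino acid response gene, was at 155, 122 and 133 TPM, and Fgf21, given above, was likewise highest in replicate 1. Among abundant genes, Fn1 was highest in replicate 1, at 5152, 4283 and 4164 TPM, and Rplp1 lowest, at 2801, 3459 and 3684 TPM. What sets replicate 1 apart was not tested. The isoform leads named above were the same without it.

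**Figure D5:**
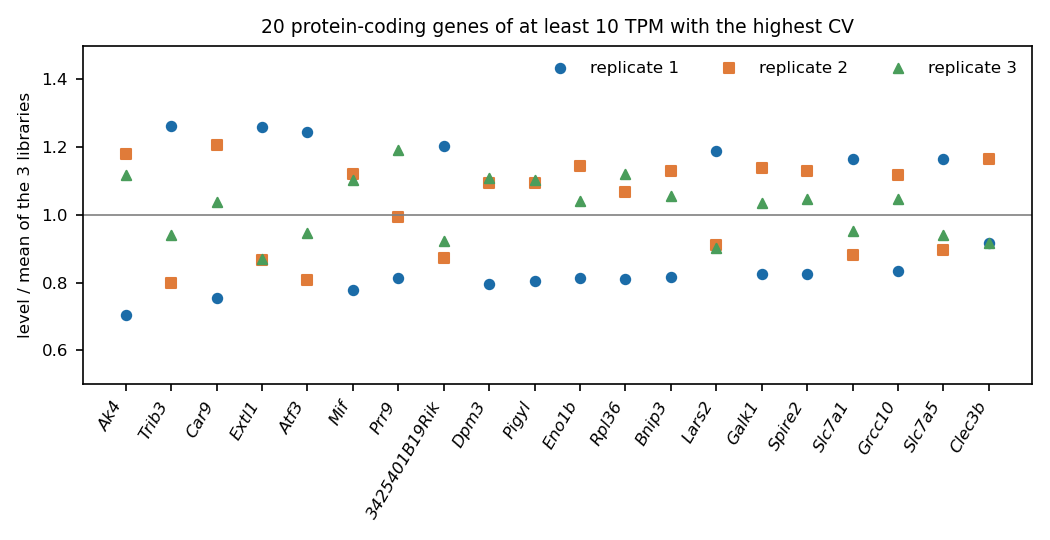
Level relative to the mean of the 3 libraries for the 20 protein-coding genes of at least 10 TPM with the highest CV; symbols are replicates 1, 2 and 3. Replicate 1 is the highest or the lowest of the 3 for 19 of the 20 genes.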

How the data were processed

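The authors deposited a table of 55421 genes with a signal headed as normalized counts per library, per the file headers. Whole reads divided by a size factor were recovered for 100% of the 79755 values above 0 in the LacZ columns, within a tolerance of 0.00100 reads. Per the submitters' processing notes, the tools were STAR 2.7.2b, DESeq2 2.11.40.6, featureCounts 1.6.4, FastQC 0.72 and Trim Galore 0.4.3.1, with mm10 as the build. The annotation release and the strand setting are not given in the sources used here. Libraries were made with a kit that keeps strand, per the labels. Among genes of at least 200 exon bases, 18.7% of those with all exon bases shared on the same strand had reads, against 55.6% of those covered only on the other strand. The 3 columns of another virus in the same table, and the second table, were not used.

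Gene lengths are the union of exons in GENCODE vM21 on GRCm38, matched by gene identifier for 55240 genes. The 181 genes without a match were left out. Each value was divided by length and scaled to 1000000 in each library, which cancels the size factors. Levels are given per library or as mean ± SD (n = 3). A gene was called expressed at 1 TPM or more in all 3 libraries, silent at 0 reads in all 3. Genes of a family are said to differ where all 3 values of a gene lie above all 3 of the other. No test was made between them, since 3 libraries allow no exact p under 0.05. Libraries were compared by a chi-square test of read counts over genes with at least 20 reads in the pair. Positions are in mm10, counted from 1. In 14 cases a gene name turned into a date was restored from its identifier.

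Named are the 20 highest genes, the 5 marker genes, the leading and the telling members of 56 isoform families, up to 6 high and 4 low members of other lists, the 10 highest long non-coding RNAs, the 15 highest transcription factors, expressed Hox genes and the 10 most variable genes. Other genes stand beside a named partner or are marked as chosen after their values were seen. A few genes that this rule selects are not reported here. Members and lists were chosen with earlier results of these data known. Alternatives tried were other lengths, thresholds, scalings and each library left out. Steps were tested on simulated data. Python 3.11.15, numpy 2.4.6, scipy 1.17.1, pandas 2.3.3 and matplotlib 3.10.9 were used.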

Additional observations from a re-analysis of the deposited data

How the results depend on the processing

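The count of expressed genes, 14006, was 15595 at 0.5 TPM, 10840 at 5 TPM, 14452 with 1 TPM on the mean and 13864 with at least 10 reads in every library as well, and between 14121 and 14170 without 1 replicate. Silent genes, 25206, became 30811 with at most 3 reads in all, 33975 below 0.1 TPM, and 26350 to 26582 without 1 replicate. The share of the 100 highest genes, 25.8%, was 18.95% of reads and 26.3% with the longest basic transcript as length. The share of contractile and sarcomere genes, 6.49%, was 3.94% of reads, 6.78% with the longest basic transcript and 6.75% among coding and long non-coding genes of at least 200 bases only. For cytosolic ribosomal proteins, 7.38%, these values were 3.55%, 9.21% and 7.67%. Without 1 replicate the 3 shares ran from 25.7% to 25.9%, from 6.45% to 6.54% and from 7.32% to 7.48%.

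The highest member was another one in 8 of 56 families without a length correction, where Acta2, Tnnt2, Pgam1, Hk1, Tubb5, Cav1, Ppard and Prkag3 led, and in 4 with the longest basic transcript, which were hexokinases, glucose transporters, beta-tubulins and caveolins. It was the same in all 56 with only exon bases of no other gene as length and without replicate 1. Without replicate 2 Cav1 led the caveolins, and without replicate 3 Mef2d led the MEF2 factors. The bases free of other genes and the restriction to longer features were chosen after seeing the data. Of the 10 most variable protein-coding genes, 9 were shared when reads per library total replaced TPM, and 1 was shared at a minimum of 50 TPM, since that minimum leaves out most of them.

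No paired analysis was possible because 1 group is described and no groups are compared. Genes were compared within the same libraries, and ratios between genes were taken per library. Depth limits genes of few reads: the median CV was 7.51% for genes between 1 and 10 TPM and 26.9% between 0.1 and 1 TPM, against 2.88% at 1000 TPM or more. Per-length values of features under 200 bases and of genes sharing exons or sequence with others are uncertain.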

Other observations

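Some further values belong to no list above and were named after they were seen. C1qtnf3, a secreted relative of adiponectin, was at 1995, 2007 and 2144 TPM in replicates 1, 2 and 3, above the glycolytic gene Aldoa in each library. Mgp, an inhibitor of calcification, was at 1857, 1839.5 and 1865 TPM. Ctrb1, which encodes the pancreatic protease precursor chymotrypsinogen, was at 181, 198 and 187 TPM from 16064 reads, while the pancreatic genes Prss1, Ptf1a and Pdx1 had no read in any library. Toll-like receptor genes had 4 of 12 expressed, against 53.8% of all protein-coding genes, with Tlr4 at 54.3 ± 2.22 TPM and Tlr2 at 46.0 ± 2.62 TPM (SD, n = 3). The chemokine genes Cxcl12 (66.2 ± 1.64 TPM), Cxcl14 (41.5 ± 3.43 TPM) and Ccl8 (37.1 ± 2.52 TPM) and the interleukin genes Il18 (45.3 ± 0.667 TPM) and Il33 (21.5 ± 1.85 TPM) led their families. Cyp1b1 was at 255 ± 3.78 TPM and accounted for most of the level of 94 cytochrome P450 genes, 438 TPM in sum, of which 16 were expressed. Wnt9a (52.1 ± 1.25 TPM) and Wnt10a (30.9 ± 2.77 TPM) led the 19 Wnt ligand genes. Of 10 Frizzled receptor genes 9 were expressed, against 53.8% of all protein-coding genes.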
